A study of Mus musculus with 8 samples.

Results

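The respiratory chain of regulatory T cells (Treg) was examined in RNAseq libraries of FoxP3+ cells that had been sorted from bone marrow (BM-Treg) or spleen (SP-Treg). Its members were the genes of the deposited tables whose symbol matched set patterns for subunits of complexes I to V and cytochrome c. They were thus chosen by symbol and not by expression. Subunits with symbols of another form, such as Ndufab1, were not taken in. The rule gave 101 of 38215 genes, of which 13 are encoded by the mitochondrial genome and 88 by nuclear chromosomes. All 13 mitochondrial-encoded and 78 nuclear-encoded genes passed the expression filter. A few symbols that the rule takes in (Atp5s, Atp5sl, Atp5l-ps1 and Atp5l2) are not established subunits of ATP synthase, and Atp5l2 is annotated as a pseudogene. There were 4 libraries per tissue, all from untreated B6.FoxP3-GFP mice aged 12 weeks, in which FoxP3+ cells carry a green fluorescent protein. Their genotype was labelled C57Bl/6 and no other allele or agent was listed. BM-Treg 1 to 3 were labelled batch 1 and female, while BM-Treg 4 and SP-Treg 1 to 4 were labelled batch 3 and male, so that the batches and sexes could be separated from tissue only through BM-Treg 4.

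Oxidative phosphorylation passes electrons from NADH and succinate through complexes I to IV to oxygen, and ATP synthase (complex V) uses the proton gradient that this builds. Cytochrome c, a small soluble protein, carries electrons from complex III to complex IV and, when released into the cytosol, triggers apoptosis. Subunits of complexes I, III, IV and V come from both genomes and are assembled together, whereas complex II is wholly nuclear-encoded. Mitochondrial mRNA is cut from long polycistronic transcripts of the heavy and the light strand, and Treg are known for their reliance on oxidative metabolism.

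Libraries held 12427136 to 21921252 expected counts. Markers of the sorted cells were high in both tissues, as the summed level of 8 Treg and T cell markers was 7416.8 to 8828.9 CPM (counts scaled to library size) in BM-Treg and 8201.4 to 8987.3 CPM in SP-Treg. BM-Treg 1 and 2, labelled female, held Y-linked transcripts (summed CPM of 153.8 and 63.3, against 2.01 in BM-Treg 3 and 258 to 285.9 in SP-Treg) beside Xist. Markers of red blood cells were unevenly spread over the spleen, with a summed level of 2.59 CPM in SP-Treg 1 and of 196.3, 487.3 and 309.1 CPM in SP-Treg 2 to 4, against 17.1 to 35.2 CPM in BM-Treg. The summed B cell markers were at 11.6 to 15.5 CPM in BM-Treg and 8.12 to 106.7 CPM in SP-Treg. Summed neutrophil markers were at 1.31 to 10.2 CPM and 0.215 to 17.6 CPM, plasmacytoid dendritic cell markers at 65.8 to 67.5 CPM and 37.1 to 81.3 CPM, and macrophage and monocyte markers at 14.0 to 19.98 CPM and 7.54 to 28.6 CPM, in the same order of tissues. No marker of these lists was at 0 in every library.

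The 13 mitochondrial-encoded mRNAs did not pass the test for a difference between the tissues (quasi-likelihood F-test of edgeR, p adjusted over 13397 genes by Benjamini-Hochberg). At an adjusted p of 0.05 the test called 0 of 13, beside 8.75% of all genes tested. At an unadjusted p under 0.05 it also gave 0, beside 3119 of 13397 genes. DESeq2 and limma-voom also called 0 of 13, and their shares over all genes are not given here. Their log2 fold changes (BM-Treg over SP-Treg) ran from -0.38 for mt-Nd6 to 0.11 for mt-Atp6, with a median of -0.12 beside -0.01 over all genes tested. The sign depended on the libraries set against each other. With all 8, 9 of 13 values were negative, while BM-Treg 4 against SP-Treg within batch 3 gave 13 of 13 positive values with a median of 0.25. Over all genes tested, that comparison gave 6772 of 13397 positive values and a median of 0.005.

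On the length-corrected FPKM scale, mt-Co1, the catalytic subunit of complex IV, was the most abundant member of either genome, with a mean of 7448.4 over the 8 libraries and a range of 5342.5 to 9807.1. The ATP synthase subunits mt-Atp6 and mt-Atp8 had mean FPKM of 2401.8 and 1624.1, and mt-Cytb, the only subunit of complex III in the mitochondrial genome, had 2094.7. Among the complex I subunits, mt-Nd4 was highest (1431.1 FPKM) and mt-Nd3 lowest (170.8 FPKM). The 78 nuclear-encoded genes that passed the filter had a median of their mean FPKM of 34.0, against 1095.6 for the mitochondrial-encoded genes. The nuclear Atp5b (977.1 FPKM), the catalytic beta subunit of ATP synthase, lay within the mitochondrial range. The mean of Uqcrc1, 755.3 FPKM, rested on BM-Treg 4 (4185.9 FPKM), and BM-Treg 1 to 3 were at 20.4, 58.3 and 89.6 FPKM, below the mean of mt-Nd3.

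Mitochondrial mRNA varied more among the splenic libraries than between the tissues. For mt-Co1 the level was 10220, 9398.5, 8872.6 and 12191.9 CPM in BM-Treg 1 to 4, and 7287.8, 13340.8, 15555.6 and 11562 CPM in SP-Treg 1 to 4. The lowest and the highest library were therefore both splenic, and the tissues overlapped. SP-Treg 1 had the lowest level of 12 of the 13 mRNAs, and SP-Treg 3 the highest of 7 and BM-Treg 4 of 6. The mitochondrial ribosomal RNAs moved with them: they took 17.7% of all counts in SP-Treg 1 and 30.2% in SP-Treg 3, against 22.7% to 26.3% in BM-Treg, and summed mRNA stayed at 8.24% to 9.23% of summed ribosomal RNA in every library. SP-Treg 1 was also the library with the least and SP-Treg 3 the one with the most red blood cell marker RNA. Other libraries did not keep this order. BM-Treg 4, highest for 6 mRNAs, had 21.6 CPM of these markers. SP-Treg 4 had more of them than SP-Treg 2 (309.1 and 196.3 CPM) but less summed mitochondrial mRNA (23380.1 and 25574.8 CPM). The part of those cells in the result was not tested. In sorted bulk samples, fewer mitochondrial transcripts per cell and a different mix of cells cannot be told apart.

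**Figure D1:**
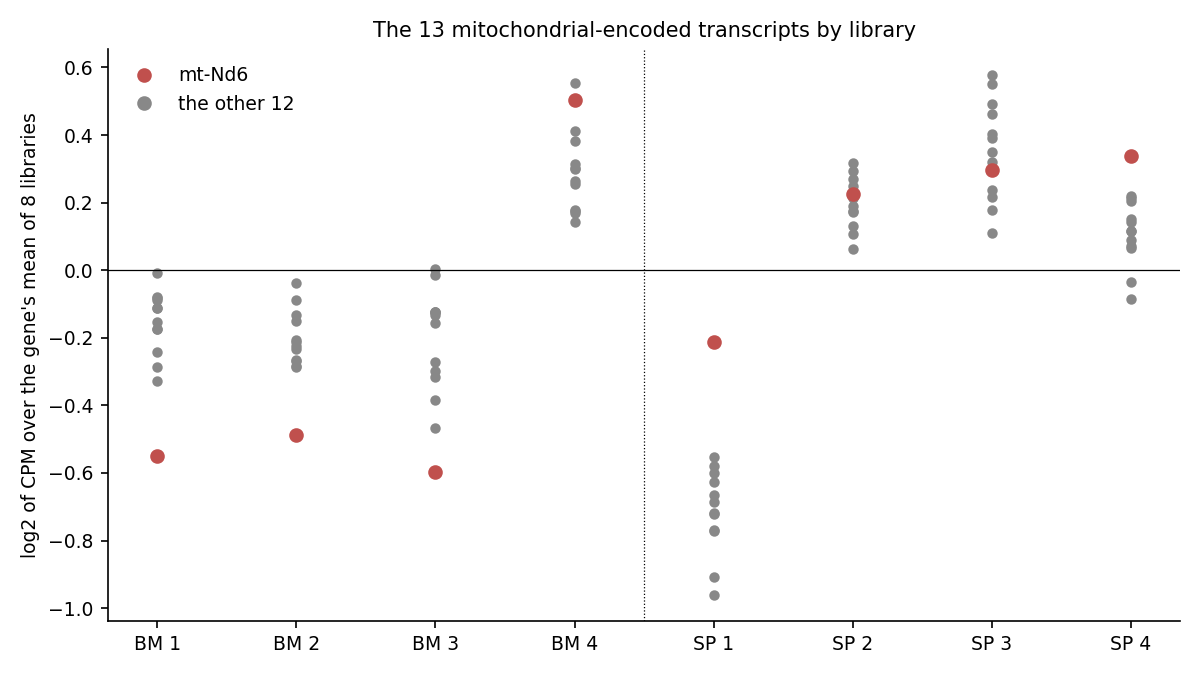
Levels of the 13 mitochondrial-encoded mRNAs in each library, as the log2 of CPM over that gene's mean of the 8 libraries, with a point per gene and mt-Nd6 in red. In SP-Treg 1 the other 12 lie between -0.96 and -0.55, below every other library, and in BM-Treg 4 they lie between 0.14 and 0.56.

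mt-Nd6, the only mRNA of the light strand, followed another pattern. It was at 150.2, 156.7, 145.3 and 311.3 CPM in BM-Treg 1 to 4 and at 189.7, 256.9, 269.6 and 277.6 CPM in SP-Treg 1 to 4. All 3 libraries of batch 1 were thus below all 5 of batch 3, and BM-Treg 4 was the highest. With all libraries its log2 fold change was -0.38 (SE 0.26, adjusted p = 0.425, edgeR). Without BM-Treg 4 it was -0.72 with an adjusted p of 0.00644, a fit that called 7.31% of all genes and in which tissue and batch cannot be told apart. No strandedness is stated for these libraries, so reads of mt-Nd6 and of heavy-strand RNA antisense to it cannot be separated either.

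mt-Nd4l, a complex I subunit at MT:9877-10173, shared its reads with a nuclear copy. The tables gave mt-Nd4l and Gm10222 (chr1:24612404-24612700, GRCm38) the same expected counts in 8 of 8 libraries. In GENCODE M21, the transcript of Gm10222 has 294 bases, all identical to the start of the 297 bases of mt-Nd4l. The sequence is shown because the counts cannot say which locus was read. The stretch shared with the Gm10222 transcript is in capitals, and the bases beyond the end of that transcript are in lower case. The coordinates given for Gm10222 span as many bases as mt-Nd4l, so the lower-case bases are not shown to be absent from that locus.
mt-Nd4l: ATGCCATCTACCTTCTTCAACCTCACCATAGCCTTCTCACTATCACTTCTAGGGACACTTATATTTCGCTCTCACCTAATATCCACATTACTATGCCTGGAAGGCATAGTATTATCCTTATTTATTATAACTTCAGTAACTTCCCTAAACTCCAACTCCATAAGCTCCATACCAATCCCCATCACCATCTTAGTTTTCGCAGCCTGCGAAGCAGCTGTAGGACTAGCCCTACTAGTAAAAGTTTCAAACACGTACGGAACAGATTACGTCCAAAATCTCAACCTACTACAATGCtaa
The sum of both loci was 138.2, 115.6, 113.1 and 204.4 CPM in BM-Treg 1 to 4 and 74.1, 158.6, 177.4 and 131.2 CPM in SP-Treg 1 to 4. The tissues overlapped, as for the other mitochondrial mRNAs.

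Set against the nuclear-encoded subunits, the mitochondrial share did not separate the tissues. Summed over 13 genes, mitochondrial-encoded mRNA was at 19595.2, 18721.4, 18016.6 and 25170.7 CPM in BM-Treg 1 to 4 and at 13894.8, 25574.8, 29823.7 and 23380.1 CPM in SP-Treg 1 to 4. Summed over 88 genes, nuclear-encoded mRNA was at 2999.8, 3462.7, 3623.7 and 10439.8 CPM in BM-Treg and at 3864.9, 4373.9, 3946.9 and 4915.8 CPM in SP-Treg. The high value in BM-Treg 4 came from Uqcrc1, which held 65.7% of the nuclear-encoded counts there (95% exact binomial interval 65.4% to 65.9%, counting error only), against 1.03% to 3.75% in BM-Treg 1 to 3 and 11.7% to 22.4% in SP-Treg.

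The log2 ratio of the mitochondrial to the nuclear sum was 2.18 ± 0.63 in BM-Treg and 2.39 ± 0.45 in SP-Treg (SD, n = 4 each), a difference of -0.21. Without Uqcrc1, an alternative added after the data had been seen, it was 2.59 ± 0.21 and 2.64 ± 0.50, a difference of -0.05. Each difference was smaller than the spread between libraries of a tissue, and no p was computed for a score over members. Within batch 3 the difference was -1.12 with Uqcrc1 and 0.17 without it. Across complexes, without Uqcrc1, the difference of this log2 ratio was -0.16 for complex I, -0.06 for complex III, -0.25 for complex IV and 0.32 for complex V, and the libraries of the tissues overlapped in each.

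**Figure D2:**
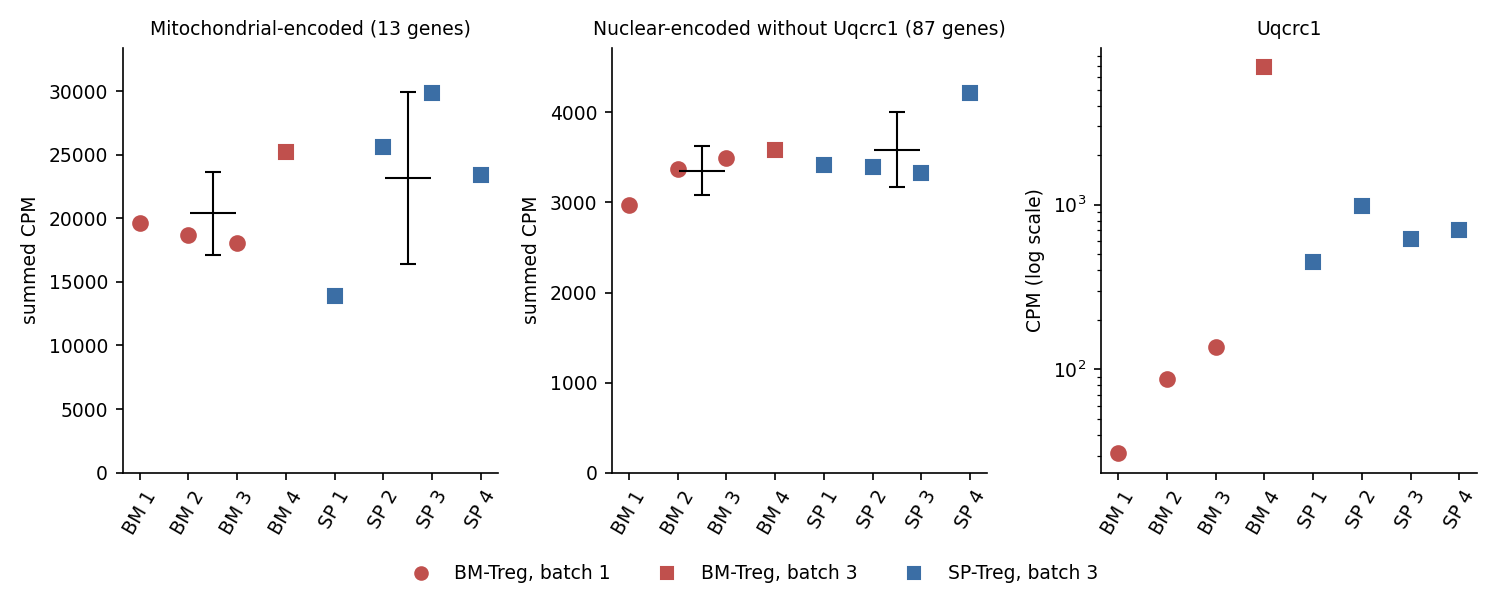
Summed CPM of the 13 mitochondrial-encoded mRNAs, summed CPM of the 87 nuclear-encoded ones without Uqcrc1, and CPM of Uqcrc1 alone on a log axis, with a point per library, shaped by batch, and the mean ± SD of each tissue in black in the first pair of panels. The sums overlap between the tissues, whereas Uqcrc1 ranges from 30.9 CPM in BM-Treg 1 to 6854 CPM in BM-Treg 4.

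Of the 78 nuclear-encoded genes tested, 4 were called. Among these, Atp5g2 and Cox8a rose in BM-Treg and Cycs fell, while 74 genes did not pass the test. This is 5.13% of the members, beside 8.75% of all genes tested. By direction, 3.72% of all genes were called higher and 5.02% lower. Log2 fold changes were positive for 41 and negative for 37 members, with a median of 0.03. In batch 3 alone 57 were positive and the median was 0.25, beside 6772 of 13397 and 0.005 over all genes tested. With batch as a term in the fit 0 were called, beside 1.93% of all genes. Without BM-Treg 1 or BM-Treg 2, the libraries with transcripts of both sexes, 1 and 4 were called. The share of all genes called in those fits is not given, so these counts cannot be read as a result about the members. Libraries of the tissues did not overlap for 8 of 78 members (10.3%), beside 16.2% of all genes (7.58% higher, 8.57% lower). Besides the called genes, Ndufv3 and Ndufs7 were higher and Atp5b and Atp5c1 lower in BM-Treg without overlap.

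**Figure D3:**
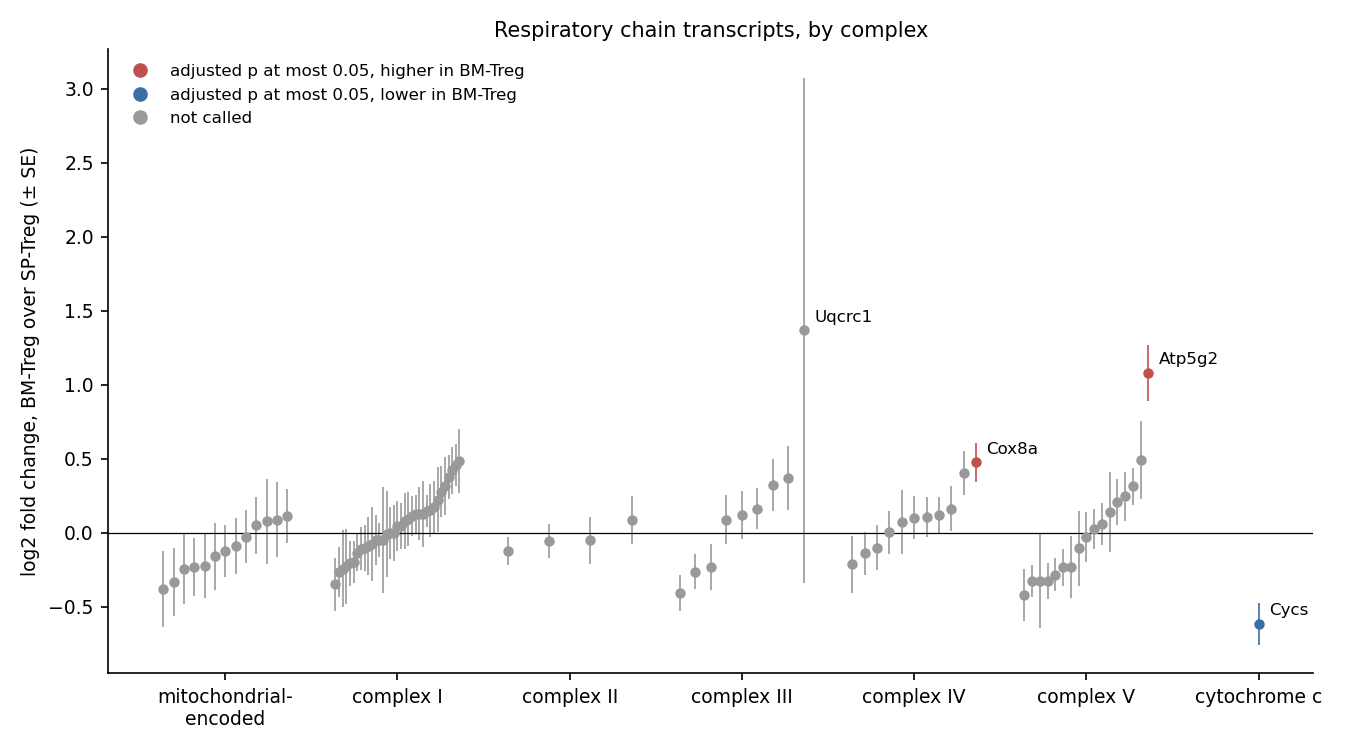
Log2 fold changes (BM-Treg over SP-Treg) of 90 of the members that passed the filter, ordered by value within the mitochondrial-encoded genes and the nuclear-encoded genes of each complex, with bars for the SE and called genes in colour. Most members lie between -0.5 and 0.5, Atp5g2 stands at 1.08, and Uqcrc1 at 1.37 has an SE of 1.71.

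Nuclear genes of the respiratory chain are known targets of NRF1 and of ETS factors such as GABP, and both motifs were searched in the members' promoters. Windows from 250 bases before to 50 bases after the RefSeq start (GRCm38.p6) were found for 63 of the 78 genes. The NRF1-type motif GCGCNNGCGC was in the windows of 28.6% of the matched members and of 7.00% of all genes with a window. The ETS-type motif CCGGAAG was in those of 25.4% and 9.93%, each searched on both strands. At least 1 of them was in 30 of 63 members and both in 4. The median log2 fold change was -0.05 with the NRF1-type motif and 0.08 without it, and 0.03 and 0.07 for the ETS-type motif. The bases from 100 before to 20 after the start are shown for Atp5g2, Cox8a and Cycs, and for Sdha, where the NRF1-type motif recurs. Matches are in capitals: the NRF1-type motif in Atp5g2 (chr15:102671028-102671147, minus strand) and 3 times in Sdha (chr13:74350221-74350340, minus strand), and the ETS-type motif, read on the opposite strand, once in Cox8a (chr19:7217597-7217716, minus strand). A second match of Cox8a lay after the bases shown. Cycs (chr6:50566550-50566669, minus strand) had no exact match in its window. The search took these letters only, so a site that departs from them would be missed, and Cycs is not shown to lack one. The RefSeq start of Atp5g2 lies 3298 bases upstream of the end of the gene as deposited.
Atp5g2: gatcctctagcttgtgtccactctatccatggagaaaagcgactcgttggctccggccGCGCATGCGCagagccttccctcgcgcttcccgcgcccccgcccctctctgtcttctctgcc
Cox8a: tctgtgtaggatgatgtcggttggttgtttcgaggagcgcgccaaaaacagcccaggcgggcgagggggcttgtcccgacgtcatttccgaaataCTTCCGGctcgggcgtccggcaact
Sdha: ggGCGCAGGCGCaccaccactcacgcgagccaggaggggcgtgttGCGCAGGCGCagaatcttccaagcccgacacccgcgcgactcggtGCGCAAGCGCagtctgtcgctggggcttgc
Cycs: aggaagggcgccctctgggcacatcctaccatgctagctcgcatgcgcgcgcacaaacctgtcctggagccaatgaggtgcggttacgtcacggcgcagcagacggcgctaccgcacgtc

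Atp5g2, at chr15:102663014-102667749 (minus strand), rose most among the called members. It is 1 of 3 nuclear genes for subunit c, the protein of the rotating membrane ring of ATP synthase, which differ in their targeting peptides and give the same mature protein. Its level was 12.5, 12.8, 16.6 and 15.1 CPM in BM-Treg 1 to 4 and 4.88, 7.17, 7.69 and 7.19 CPM in SP-Treg 1 to 4. The tissues were fully separated, with BM-Treg higher, at a log2 fold change of 1.08 (SE 0.19, adjusted p = 0.0029, edgeR). The call held without each library in turn (8 of 8 fits), and the value was 1.17 within batch 3. With batch as a term the log2 fold change was 1.17 with an adjusted p of 0.0511.

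The other two subunit c genes were not called. Atp5g1 was at 24.9, 25.7, 39.2 and 30.8 CPM in BM-Treg and 14.0, 25.0, 36.3 and 34.3 CPM in SP-Treg (log2 fold change 0.14, SE 0.27, adjusted p = 0.807). Atp5g3 was at 31.5, 38.3, 37.2 and 52.8 CPM and at 53.5, 42.7, 47.7 and 69.7 CPM (-0.42, SE 0.17, adjusted p = 0.16, edgeR). On the FPKM scale the 3 genes summed to 154.7 ± 22.6 in BM-Treg and 142.2 ± 24.7 in SP-Treg (SD, n = 4 each), a difference within the spread. Atp5g2 made up 25.8% ± 1.76 of that sum in BM-Treg and 12.8% ± 2.12 in SP-Treg, and Atp5g3 39.8% ± 5.56 and 55.9% ± 10.2. The difference between these genes was not tested. Since the coding parts of the 3 genes are alike, the division of reads among them is an estimate.

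**Figure D4:**
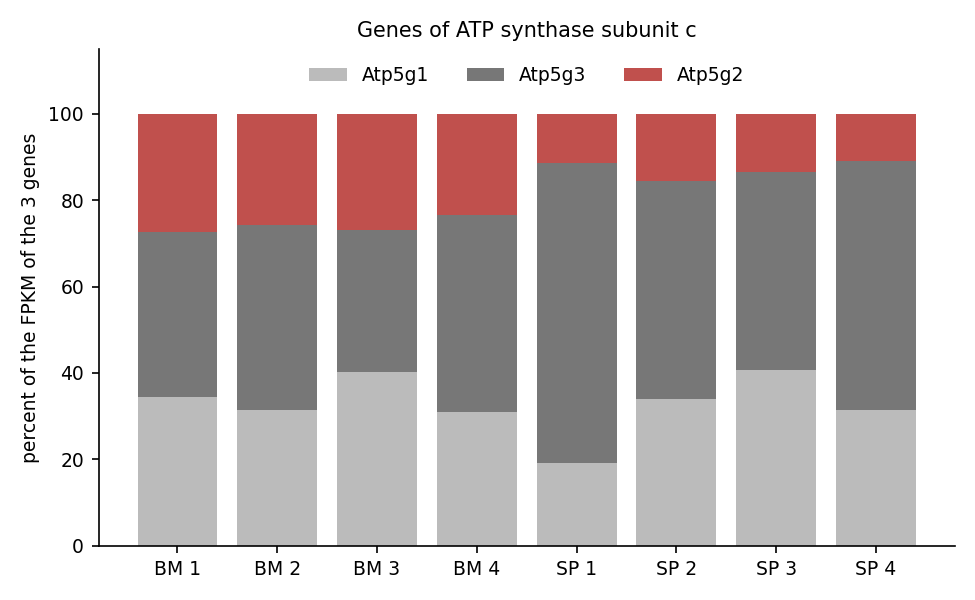
Share of each of the 3 genes in the summed FPKM of ATP synthase subunit c, by library, as stacked bars in percent. The share of Atp5g2 lies between 23.4% and 27.4% in the BM-Treg libraries and between 10.8% and 15.5% in the SP-Treg libraries.

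Among the other parts of ATP synthase, 4 of the 5 genes of the F1 head and central stalk had negative values and none was called. Atp5b was at 559.2, 643.4, 653.8 and 523.1 CPM in BM-Treg and at 725.9, 697.4, 720.3 and 842.2 CPM in SP-Treg. Each BM-Treg library was below each SP-Treg library, and the log2 fold change was -0.33 (SE 0.11, adjusted p = 0.0809, edgeR; 0.0326 by DESeq2). Atp5c1, the gamma subunit of the rotating stalk, was also lower without overlap (-0.33, SE 0.12, adjusted p = 0.118), and the alpha subunit Atp5a1 was at -0.24 (SE 0.12). Atp5d, the delta subunit of the same stalk, was at 0.31 (SE 0.13, adjusted p = 0.155). The 4 genes of the peripheral stalk ran from -0.28 (Atp5f1) to 0.21 (Atp5o).

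Cox8a, at chr19:7215158-7217616 (minus strand), is the widely expressed form of a small structural subunit of complex IV, and it rose in BM-Treg. It was at 79.9, 67.9, 83.4 and 78.4 CPM in BM-Treg 1 to 4 and 43.5, 60.5, 66.2 and 52.8 CPM in SP-Treg 1 to 4. BM-Treg 2 was close to SP-Treg 3, and the log2 fold change was 0.47 (SE 0.13, adjusted p = 0.035, edgeR). When each library was left out in turn the call held 2 times in 8, with adjusted p-values up to 0.0939 and a lowest log2 fold change of 0.39 without SP-Treg 1. It stood without BM-Treg 2 and without SP-Treg 3.

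The other 10 nuclear-encoded genes of complex IV that passed the filter were not called by edgeR with all libraries. Of its 11 nuclear-encoded genes that passed the filter, 8 had positive and 3 negative values, and all 11 were positive in batch 3. All batch 3 values rest on BM-Treg 4 as the only BM-Treg library. It also gave positive values for 57 of 78 nuclear-encoded members and for 6772 of all 13397 genes tested. Cox7c, with the highest mean FPKM of the complex among nuclear genes (179.2), was at 0.12 (SE 0.12), and Cox4i1, the regulatory subunit 4 of most tissues, at 0.10 (SE 0.14). Cox6a1, the widely expressed form of subunit 6a, was at 60.9, 59.7, 74.0 and 81.7 CPM in BM-Treg and at 39.3, 49.8, 56.2 and 63.8 CPM in SP-Treg (0.40, SE 0.15, adjusted p = 0.118, edgeR), and was called with library totals as the only scaling (0.47, adjusted p = 0.0496). Cox6b1, Cox7a2 and Cox7a2l, an assembly factor for supercomplexes, were at 0.16, 0.07 and -0.14. Ndufa4, named for complex I and now counted to complex IV, was at -0.23 (SE 0.25). In the counts and ratios per complex given here it was kept with complex I.

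The forms of complex IV subunits known from muscle, lung, testis or hypoxic cells were near the limit of detection in both tissues. Cox4i2, Cox6a2, Cox7a1, Cox8b and Ndufa4l2 had 1 to 11 counts in total over the 8 libraries, and Cox7b2 and Cox8c had 0. A count of 0 allows up to 3 counts, which corresponded to 0.131 to 0.251 CPM per library. Cox6b2, a testis form, had 65 counts and up to 1.31 CPM (BM-Treg 1), and did not pass the filter. The 2 remaining genes below the filter, Atp5l-ps1 and Atp5l2, had 9 and 8 counts. The ubiquitous partners Cox4i1, Cox6a1, Cox6b1 and Cox8a were above 27 CPM in every library.

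**Figure D5:**
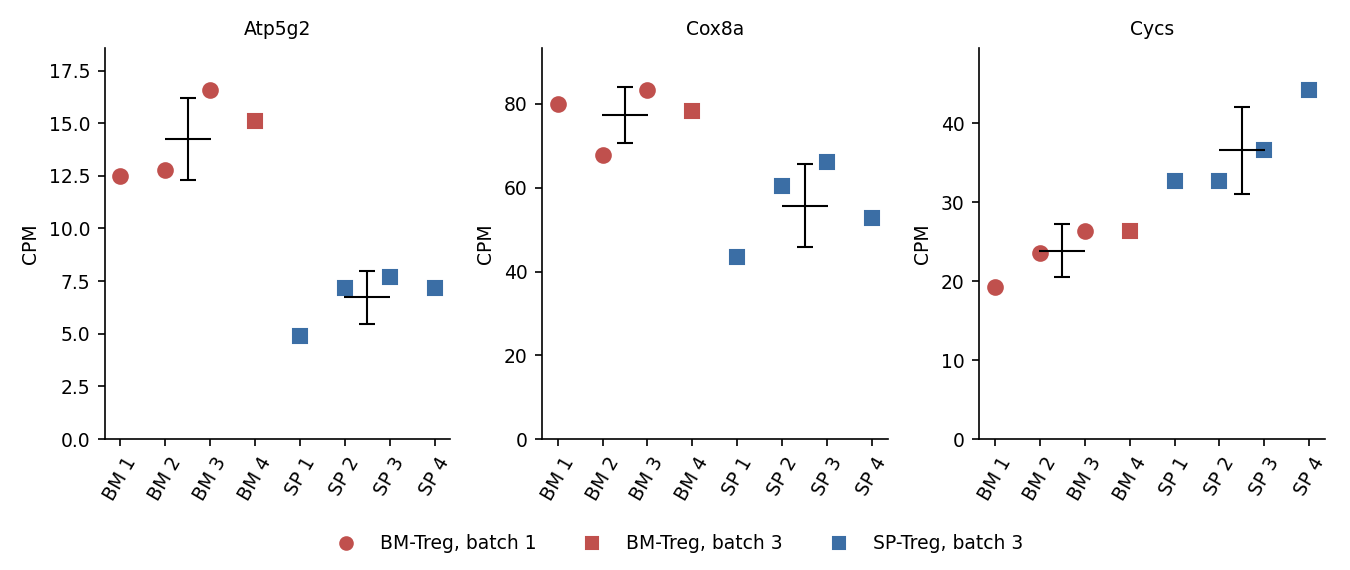
CPM of Atp5g2, Cox8a and Cycs in each library, with points shaped by batch and the mean ± SD of each tissue in black. Atp5g2 and Cox8a are higher and Cycs is lower in each BM-Treg library than in each SP-Treg library, with the narrowest gap for Cox8a.

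Complex I, the entry point of electrons from NADH, had positive values for 18 of the 36 nuclear-encoded genes that passed the filter. Ndufs7, an iron-sulphur protein of its core, was at 18.1, 22.7, 17.8 and 24.4 CPM in BM-Treg and 12.9, 15.3, 17.5 and 16.2 CPM in SP-Treg. The tissues did not overlap, and its log2 fold change was 0.42 (SE 0.16, adjusted p = 0.115, edgeR). The NADH-binding subunit Ndufv1 was at 0.04 and its neighbour Ndufv2 at -0.27. Of the accessory subunits, Ndufv3 (0.46, SE 0.14, adjusted p = 0.0641) and Ndufa11 (0.49, SE 0.22) had the highest values and Ndufb5 (-0.35, SE 0.18) the lowest.

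Cycs, at chr6:50562563-50566538 (minus strand), encodes cytochrome c and fell in BM-Treg. It was at 19.2, 23.5, 26.4 and 26.3 CPM in BM-Treg 1 to 4 and 32.7, 32.7, 36.6 and 44.2 CPM in SP-Treg 1 to 4. No library of BM-Treg reached the lowest of SP-Treg, and the log2 fold change was -0.62 (SE 0.14, adjusted p = 0.0143, edgeR). It was -0.46 within batch 3, the call was lost without BM-Treg 1 (adjusted p = 0.0544), and on log2(FPKM + 1) it was -0.42 with an adjusted p of 0.144 (limma). Cyc1, cytochrome c1 of complex III, which hands electrons to cytochrome c, was not called by edgeR (-0.41, SE 0.12, adjusted p = 0.0538) but was called by DESeq2 (adjusted p = 0.0276) and limma-voom (0.0435). It was at 32.8, 34.3, 35.6 and 43.8 CPM in BM-Treg and 42.0, 51.5, 51.8 and 48.9 CPM in SP-Treg, with BM-Treg 4 within the splenic range and a value of -0.14 in batch 3.

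Uqcrc1, core protein 1 of complex III, at chr9:108936648-108949640 (plus strand), had the largest SE of the members tested. Its level was 30.9, 87.5 and 136 CPM in BM-Treg 1 to 3, 6854 CPM in BM-Treg 4, and 452.1, 980.1, 617.8 and 704.1 CPM in SP-Treg 1 to 4. The highest library was 222-fold above the lowest, and BM-Treg 4 was 6.99-fold above the next. The lowest library of batch 3 was 3.32-fold above the highest of batch 1. By a rule set after this was seen, Uqcrc1 was the only 1 of 38215 genes with every batch 3 library above 10 CPM and over 3-fold above every batch 1 library. Under the mirrored rule, 1 gene had every batch 1 library above 10 CPM and over 3-fold above every batch 3 library. The cut-offs were thus chosen with the values of Uqcrc1 known. With all libraries the log2 fold change was 1.37 (SE 1.71, adjusted p = 0.693, edgeR), and without BM-Treg 4 it reversed to -3.02 with an adjusted p of 0.0401, a fit in which tissue and batch cannot be told apart. The sign also turned with all 8 libraries, to -1.61 with limma-voom and to -1.47 and -1.49 on log2(FPKM + 1) and log2(FPKM + 0.1), with no call. Its partner Uqcrc2, core protein 2, was at 42.5 to 50.4 CPM in BM-Treg and 47.9 to 66.5 CPM in SP-Treg (-0.26, SE 0.12, adjusted p = 0.197). The Rieske protein Uqcrfs1 was at 0.16 (SE 0.14), and edgeR with all libraries called 0 of the 9 nuclear-encoded genes of complex III, against Cyc1 by DESeq2 and limma-voom.

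Complex II, which also belongs to the citric acid cycle, had a narrow range of values. Its 4 genes had log2 fold changes between -0.13 (Sdha) and 0.09 (Sdhc). Sdha, the flavoprotein that oxidises succinate, was at 178.8, 179.5, 181.6 and 182.8 CPM in BM-Treg and 212.2, 199.4, 174.1 and 203.2 CPM in SP-Treg (SE 0.09, adjusted p = 0.452, edgeR). SP-Treg 3 lay below the BM-Treg libraries and the other splenic ones above them. The iron-sulphur subunit Sdhb and the anchor Sdhd were at -0.05 and -0.06.

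Genes that build or express the chain were mostly not called, read against the 8.75% of all genes tested. Of the assembly factors 47 of 48 matched the tables, all 47 passed the filter, and 0 were called, with a median log2 fold change of 0.04. At an unadjusted p under 0.05 there were 2 of them, beside 3119 of the 13397 genes tested (edgeR). In the group for mitochondrial genome expression 1 of 30 was called, Rexo2, a mitochondrial oligoribonuclease (-0.63, SE 0.15, adjusted p = 0.0151, edgeR), and the median was -0.13. Tfam, which packages mitochondrial DNA and starts its transcription, was at 24.4, 29.0, 23.5 and 26.2 CPM in BM-Treg and 38.2, 28.2, 32.0 and 40.4 CPM in SP-Treg (-0.43, adjusted p = 0.0632). Among 11 regulators of mitochondrial programmes that passed the filter 1 was called, Myc (-1.04, SE 0.26, adjusted p = 0.0413), at 40.2 to 52.9 CPM in BM-Treg and 56.5 to 135.4 CPM in SP-Treg. Nrf1 was at -0.05 (SE 0.11), and 0 of 19 citric acid cycle genes were called.

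Of the outer membrane and import list, 4 of 18 genes were called lower in BM-Treg and 0 higher (22.2%, beside 8.75% of all genes called and 5.02% called lower), and the difference of these shares was not tested. The list was chosen with earlier results of these data known, and it also holds chaperonins of the matrix. The median of the list was -0.15. The called genes were the matrix chaperonin Hspd1 and its partner Hspe1, the import motor Hspa9, and the import receptor Tomm70a. Hspe1 was at 28.2, 33.6, 32.6 and 35.7 CPM in BM-Treg and 69.0, 88.5, 61.5 and 76.4 CPM in SP-Treg (-1.18, SE 0.13, adjusted p = 1.85e-04, edgeR). Hspd1, on the same scale, was at 115.8 to 169.9 CPM and 248.1 to 541.5 CPM (-1.44, SE 0.26, adjusted p = 0.0109). Hspa9 and Tomm70a were at -0.80 and -0.57, and the libraries of the tissues did not overlap for any of these genes, as for 16.2% of all genes tested. With batch as a term, Hspe1 (adjusted p = 0.0287) and Tomm70a (0.0434) were still called, and Hspd1 and Hspa9 were not (0.222 and 0.0832).

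Fold changes of the members went with the base composition of their transcripts, among the members and over all genes. Across the 78 nuclear-encoded members, Spearman's rho between log2 fold change and GC content of the longest GENCODE M21 transcript was 0.32, and across 13191 tested genes it was 0.26. With transcript length rho was -0.26 and -0.07. These are descriptions across genes, which share libraries and are not independent replicates. Members with a positive value had a median GC content of 51.8% and a median length of 918 bases, those with a negative value 49.3% and 1445 bases. Of the called genes named here, Atp5g2 (63.35%) and Cox8a (58.55%), which rose, had high GC content and Cycs (40.83%), which fell, had low. Cyc1, with a negative value, was at 61.42%. The part of composition or length in the result was not tested.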

How the data were processed

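RNA of the sorted cells was amplified with the SPIA method (Ovation RNA-Seq System V2) and sequenced from a single end. The submitters' processing notes name cutadapt 1.9, STAR 2.5.2a, RSEM 1.2.30 and GRCm38. The authors deposited expected counts per gene (estimated numbers of reads that need not be whole), with no normalization between libraries, and FPKM values, in which counts are divided by transcript length and depth. The cDNA was amplified without molecular identifiers, so intervals and floors cover counting error only. Totals were between 12427136 and 21921252 expected counts per library. The labels do not say whether libraries came from separate mice, so that p-values measure the spread between these libraries.

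Members were taken by gene symbol. The members and the gene lists were chosen with earlier results of these data known. Expected counts were rounded, filtered by edgeR's default filter on tissue (13397 of 38215 genes kept), normalized by TMM and tested for BM-Treg against SP-Treg with edgeR's quasi-likelihood test with no covariate, in R 4.3.3 with edgeR 4.0.16, limma 3.58.1 and DESeq2 1.42.0. P-values were adjusted over all genes tested with a threshold of 0.05. CPM values use TMM library sizes and FPKM values are as deposited. Batch 3 holds 1 BM-Treg library, so values within it carry no test. Batch 1 holds no SP-Treg. Duplicate libraries were looked for and none was found.

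A gene called in the main test is not reported here. Named were all mitochondrial-encoded members, the other called nuclear-encoded members, per complex the member with the highest mean FPKM and the one with the largest absolute change, isoform sets of complexes IV and V, Cycs and Cyc1, and called genes of other lists. Further genes were chosen for their role or after their values were seen, among them the non-overlapping members, some of the other core subunits, Ndufa11, Ndufb5, Tfam and Nrf1. Symbols missing from the tables were matched by Ensembl identifier in GENCODE M21. Alternatives were other scalings, filters and tests, limma on log2(FPKM + 1) and log2(FPKM + 0.1), a batch term, batch 3 alone, a replicate block and each library left out. Fits were tested on simulated data.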

Additional observations from a re-analysis of the deposited data

Results flagged for a closer look

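Of 70 groups of 4 libraries examined with Dixon's test on named members and sums, 12 held a library far from the other 3. For independent groups of like libraries chance gives about 1 in 20. These groups share libraries and members, and each BM-Treg group mixes the batches, so the count cannot be judged against that rate. In BM-Treg 4, 4 mitochondrial mRNAs stood above the other BM-Treg libraries: mt-Co2 (1369.1 CPM, the next 967.1), mt-Nd4 (2135.1 CPM, the next 1548.8), mt-Nd6 (311.3 CPM, the next 156.7) and mt-Cytb (2558.5 CPM, the next 1939.1). In the same library Uqcrc1 was at 6854 CPM against at most 136 in the other 3, and with it the summed nuclear-encoded members at 10439.8 CPM against at most 3623.7. BM-Treg 4 is the only BM-Treg library of batch 3, so batch and this library cannot be told apart.

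In SP-Treg 1, mt-Co2 (639.7 CPM, the next 1114.2) and mt-Co3 (353.8 CPM, the next 613.4) stood below the other splenic libraries. In SP-Treg 4, Cox4i1 (91.4 CPM, the next 61.5), Cox6b1 (41.1 CPM, the next 29.4), Cox7a2 (23.6 CPM, the next 12.8) and the nuclear-encoded sum without Uqcrc1 (4211.7 CPM, the next 3412.8) stood above them. The cause was not tested in any of these.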

How the results depend on the processing

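The count of called nuclear-encoded members, 4, was 7 with DESeq2 and 0 with batch as a term, and between 1 (without BM-Treg 1) and 6 (without BM-Treg 4, and without SP-Treg 4) with a library left out. It was 4 or 5 in the other alternatives. Of all genes, 1.93% were called with the batch term and 7.31% without BM-Treg 4. The shares in the other alternatives are not given, so a change in these counts cannot be read as particular to the members. Mitochondrial-encoded members gave 0 calls in each alternative except without BM-Treg 4, where mt-Nd6 made 1 (range 0 to 1). The nuclear-encoded median of 0.03 moved to 0.23 with a batch term and to 0.25 in batch 3 alone, and the mitochondrial to nuclear log2 ratio of -0.21 moved to -1.12 in batch 3 alone. With libraries left out the ratio ran from -0.39 to 0.10, changing sign without BM-Treg 4. Uqcrc1 reversed to -3.02 without BM-Treg 4, the low end of a range that reached 1.80 with other libraries left out, and with all 8 it was -1.61 with limma-voom, -1.47 and -1.49 on the log2 FPKM scales and -2.15 with a replicate block, uncalled in each. The cause was not tested. For the 30 named members tested, 600 alternative values gave 534 with the same direction and call or within 1 SE of an uncalled value, 16 that lost and 9 that gained a call, 40 that moved and 1 that reversed. In 36 fits an uncalled value changed sign. With a replicate block 5 nuclear-encoded members were called, the nuclear-encoded median was 0.04, the ratio was -0.21 and Cox6a1 was called (0.41, adjusted p = 0.0483). Correlations of same-numbered libraries' deviations from the mean of their tissue were -0.11, 0.06, -0.18 and 0.04, and only numbers 2 and 4 matched best with their own. The mean of BM-Treg mixes the batches, so this check cannot say whether the replicate numbers pair the libraries.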
